A study of Mus musculus with 16 samples.

Results

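Fn1, Itgb1, Lamc1, Sparc, Ccn1, Ccn2 and Lgals1, which are mouse genes of cell adhesion and the extracellular matrix, were followed across the crosslinking libraries of the RNA-binding protein Dazl. They were chosen by name and located by their RefSeq span in mm10. They are 7 of the 3203 genes in which any library listed Dazl coverage, and they hold 69 of the 7838 regions that lie in genes, out of 8338 regions in all. Each of the 7 genes had at least 1 region. Every one of the 69 regions had a value in all 12 libraries, as did all 8338 regions.

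The libraries were made by KIN-CLIP, a form of iCLIP in which pulses of an ultraviolet laser join a protein to the RNA it touches for a set time, so that the growth of signal with time can be followed. All came from 1 monoclonal derivative of GC-1 spg, a mouse cell line of spermatogonial origin, in which doxycycline switches on Dazl. The groups differed in laser power (1 or 2.6 mW), in Dazl level (1x or 4.2x) and in crosslinking time (30, 180 or 680 s), and all 12 came from induced cells that carry the same transgene. There was 1 library per condition. A combination of laser power and Dazl level is called a setting and written as 1 mW/1x, 1 mW/4.2x, 2.6 mW/1x or 2.6 mW/4.2x. Another 4 samples, of 0 s, were not analysed here, and a background without crosslinking is therefore missing from every value.

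Dazl is a germ cell protein of the DAZ family that binds RNA through 1 recognition motif, prefers short U-rich stretches around the triplet GUU, and acts mainly from the 3′ ends of mRNAs on their translation and stability. The proteins encoded by the 7 genes work where a cell meets its matrix. Fibronectin (Fn1) and the laminin γ1 chain (Lamc1) are structural matrix ligands, and the integrin β1 chain (Itgb1) is part of their receptors. Sparc, Ccn1 and Ccn2 are matricellular proteins, which are secreted and modulate adhesion without building the matrix, and Lgals1 encodes galectin-1, a lectin that binds β-galactosides on matrix and cell surface glycoproteins.

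The unit of all values is the authors' normalized coverage, a score given as a whole number per position. Neighbouring intervals with gaps of up to 10 nt were merged over all libraries into a region, a region's coverage is the sum over its positions, and a gene's coverage is the sum over its regions. The depth in reads is unknown, so no counting interval is given. Library totals ran from 11271 to 252932, and the 7 genes together held 120 to 3109 of that, or 1.06% to 1.37% of a library. The files list no coverage of 0 in these regions. A gene with 18 regions can therefore not fall below 18, which matters in the weakest libraries. Of the 69 regions, 45 stood at 1 at 30 s and 51 at 180 s under 1 mW/1x, against 74.0% and 80.5% of all regions. None of the 69 stood at 1 in any library of 680 s. Among all regions 7.99% did at 680 s under 1 mW/1x, and 0% at 680 s under the other settings. Of 14 germ cell marker genes looked up, 1 had a region (Sall4, mean coverage 1.67) and Dazl itself had none. Of 9 Sertoli cell markers 2 had a region (Wt1, mean 12.8, and Dhh, 12.3), and of 5 endothelial markers 2 (Vwf, 11.7, and Kdr, 4.33). Of 12 fibroblast and peritubular myoid markers 4 had a region, with means of 715 (Col1a1), 146 (Col1a2), 23.3 (Pdgfra) and 15.7 (Acta2). Of 6 Leydig cell and 5 macrophage markers 0 had a region. Coverage depends on both the amount of an RNA and its contact with Dazl, and no RNA abundance was measured in the files used here, so the parts of these 2 in any value cannot be told apart.

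The 69 regions were short. Of them, 59 (85.5%) were exactly 17 nt long, against 81.8% of the regions of all other genes, and the widest had 83 nt. The nearer end of the gene lay a median of 748 nt away, against 1342 nt in other genes, and 42 of 69 (60.9%) began or ended within 1000 nt of an end, against 42.4%. Spans differ in length between genes, so these shares describe the set and carry no test. Neither strand nor exon structure was given with the files. Ends are therefore named as lower or higher coordinate, with the direction of transcription added as background.

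The coverage of both structural ligands lay largely at the lower-coordinate end of their spans, which is the end of transcription for both. Fn1 (gene ID 14268, chr1:71585473-71653280) had 18 regions. Of these, 7 lay within 1000 nt of the lower end and held 54.0% of its mean coverage over the 12 libraries, 1 lay 158 nt from the higher end, and the other 10 lay at least 5387 nt inside. Its strongest region, at chr1:71585732-71585748, held 21.6% of the gene's mean coverage with 17 of its 330 covered nt. Lamc1 (gene ID 226519, chr1:153218922-153332786) had all of its 8 regions within 1445 nt of the lower end of a span of 113865 nt. The outermost, at chr1:153218921-153218937, began 1 nt outside the annotated span. No single region dominated Lamc1, since its strongest held 17.2% of the mean.

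In Itgb1 (gene ID 16412, chr8:128685654-128733579, on the plus strand) the coverage lay at the higher-coordinate end, again the end of transcription. Of its 14 regions, 8 lay within 1000 nt of that end with 76.5% of the mean coverage, and 11 lay within 3000 nt with 92.2%. One 57-nt region at chr8:128732567-128732623 held 41.6% of the mean with 19.5% of the covered nt. A further region lay 135 nt from the start of the span, and it was the weakest of the 14.

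The matricellular genes differed in layout. Sparc (gene ID 20692, chr11:55394159-55420080, on the minus strand) had 14 regions, of which 5 lay within 1000 nt of the lower end, where its transcription ends, with 48.8% of the mean coverage. Another 4 lay within 3000 nt, and 5 lay deeper in the span. Ccn1 (gene ID 16007, chr3:145646971-145649985, on the minus strand) had 4 regions, all within 1000 nt of the lower end, again the end of transcription. Ccn2 (gene ID 14219, chr10:24595442-24598683) had 9 of 10 regions within 1000 nt of the higher end, with 96.2% of the mean coverage. An 83-nt region at chr10:24598574-24598656, ending 27 nt before that end, held 51.1% of it. Lgals1 (gene ID 16852, chr15:78926725-78930465) had 1 region, chr15:78930053-78930069, 396 nt from the higher end. Ccn2 and Lgals1 are transcribed towards higher coordinates.

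The sequence of 1 of the 69 regions could be read from RefSeq (GRCm38.p6), because it falls in the listed promoter window of the neighbouring gene Gm15270. It is the only Ccn2 region at the other, lower-coordinate end of that gene, 529 nt from it, and is shown on the plus strand because it is the exception to the layout of Ccn2. No base is set in capitals, since the triplet searched for, GTT on the plus strand or AAC, its reverse complement, does not occur in it.
Ccn2, chr10:24595971-24595987: cggctgctgccgcgtct
Of the 113 regions of 17 nt that lie in listed windows, 56 (49.6%) held GTT on the plus strand and 65 (57.5%) held GTT or AAC. The missing match says only that these letters are not in this window. The coverage of the region was 1, 1 and 8 at 30, 180 and 680 s under 1 mW/1x, 1, 1 and 15 under 1 mW/4.2x, 2, 1 and 24 under 2.6 mW/1x, and 2, 14 and 31 under 2.6 mW/4.2x. It was among the regions that were low at 30 s under all 4 settings and well above that at 680 s.

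**Figure D1:**
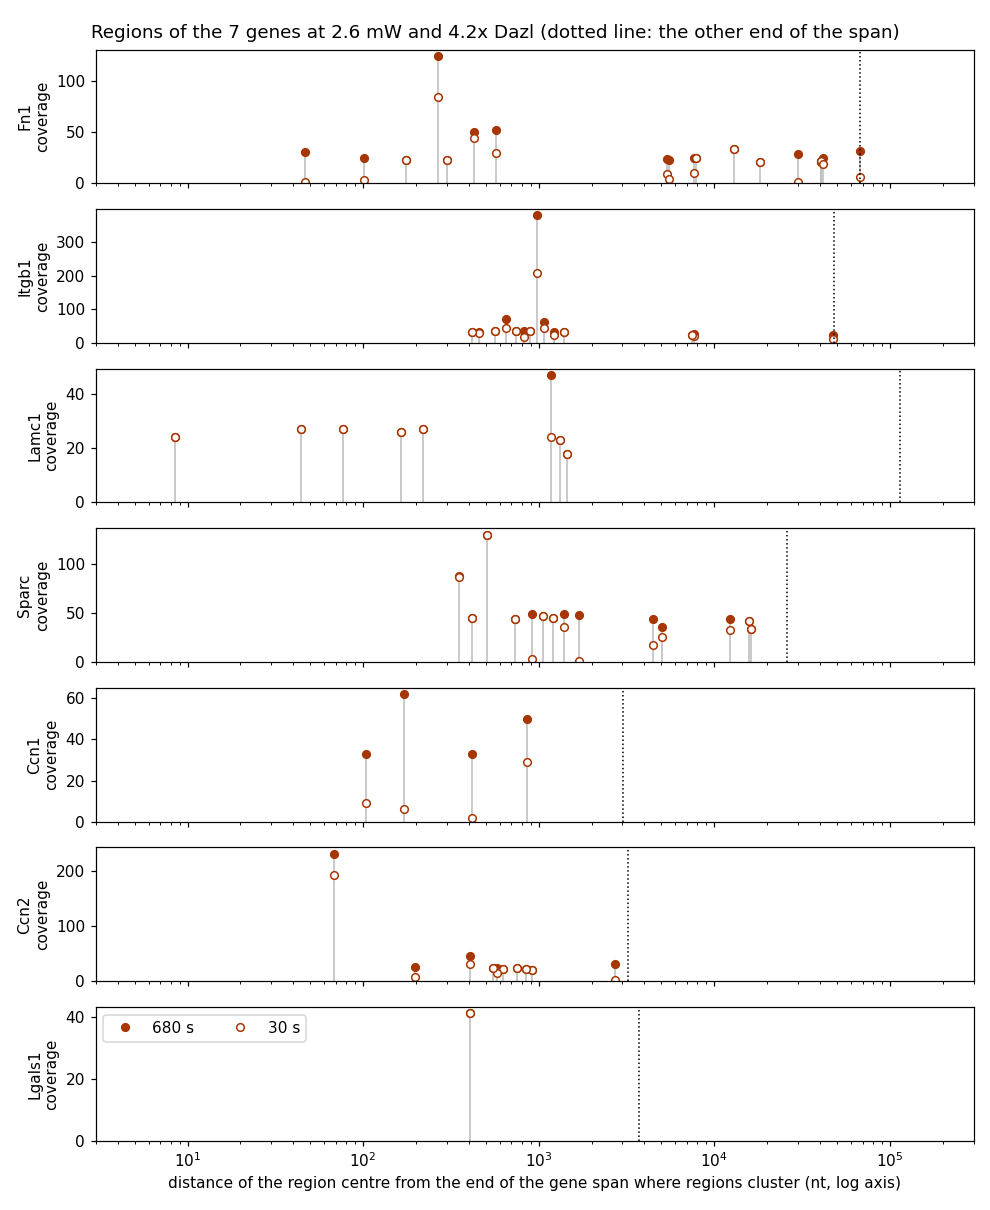
Coverage of each of the 69 regions (y axis, authors' normalized coverage summed over the region, 1 library per time) against the distance of its centre from the gene end where regions cluster (x axis, nt, log scale) under 2.6 mW/4.2x; filled points are 680 s, open points 30 s, and the dotted line is the other end of the span. Where only an open point is seen, both values are equal or nearly so: 7 of 8 Lamc1 regions have the same value at both times, and 0 of 4 Ccn1 regions do.

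In all 7 genes coverage was higher at 2.6 than at 1 mW whenever time and Dazl level were the same. It was also higher with 4.2x than with 1x Dazl at the same time and laser power, except in Lgals1 at 30 s and 2.6 mW. Coverage was higher at 680 than at 30 s in every setting, except in Lgals1. From 30 to 180 s it fell in most settings in every gene but Ccn1, where it rose in 2 of 4. Values are given in the order 30, 180 and 680 s. Fn1 had 32, 24 and 191 under 1 mW/1x, and 183, 119 and 363 under 1 mW/4.2x. The 2.6 mW values were 213, 178 and 480 with 1x and 378, 426 and 605 with 4.2x. At each time the library under 2.6 mW/4.2x was the highest and that under 1 mW/1x the lowest, and the step between 180 and 680 s was upward in every setting.

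Lamc1, the other ligand, had 17, 11 and 78 under 1 mW/1x, and 102, 56 and 130 under 1 mW/4.2x. At 2.6 mW it had 87, 97 and 168 with 1x, and 196, 182 and 219 with 4.2x. Its values under the strongest setting spanned a narrow range, while under the weakest the 680 s library stood far above the others. The receptor chain Itgb1 had 64, 36 and 279 under 1 mW/1x, and 305, 190 and 546 under 1 mW/4.2x. The 2.6 mW values were 318, 288 and 654 with 1x, and 587, 668 and 849 with 4.2x. Its 1 mW/4.2x and 2.6 mW/1x libraries of 30 s were close to each other, and its 2.6 mW/4.2x library was the highest at every time.

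Sparc, a collagen-binding matricellular protein, had 24, 17 and 232 under 1 mW/1x, and 245, 154 and 470 under 1 mW/4.2x. At 2.6 mW it had 370, 326 and 585 with 1x, and 590, 567 and 745 with 4.2x. The 30 and 180 s libraries of the weakest setting were its 2 lowest, near the lowest possible value of 14, and the next lowest stood at 154. Ccn2, an integrin ligand induced by mechanical signals, had 42, 24 and 130 under 1 mW/1x, and 136, 102 and 276 under 1 mW/4.2x. The 2.6 mW values were 188, 186 and 389 with 1x, and 361, 369 and 472 with 4.2x.

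Ccn1, a close relative of Ccn2 that is likewise an integrin ligand, was covered mainly at the last time point. It had 12, 6 and 60 under 1 mW/1x, and 31, 20 and 115 under 1 mW/4.2x. At 2.6 mW it had 23, 37 and 134 with 1x, and 46, 68 and 178 with 4.2x. The lowest of its 4 values at 680 s (60) was above 7 of its 8 earlier values. Lgals1 had 5, 2 and 15 under 1 mW/1x, and 19, 8 and 24 under 1 mW/4.2x. The 2.6 mW values were 43, 32 and 32 with 1x, and 41, 40 and 41 with 4.2x. All 6 Lgals1 libraries of 2.6 mW were above all 6 of 1 mW, and at 2.6 mW it did not rise from 30 to 680 s.

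**Figure D2:**
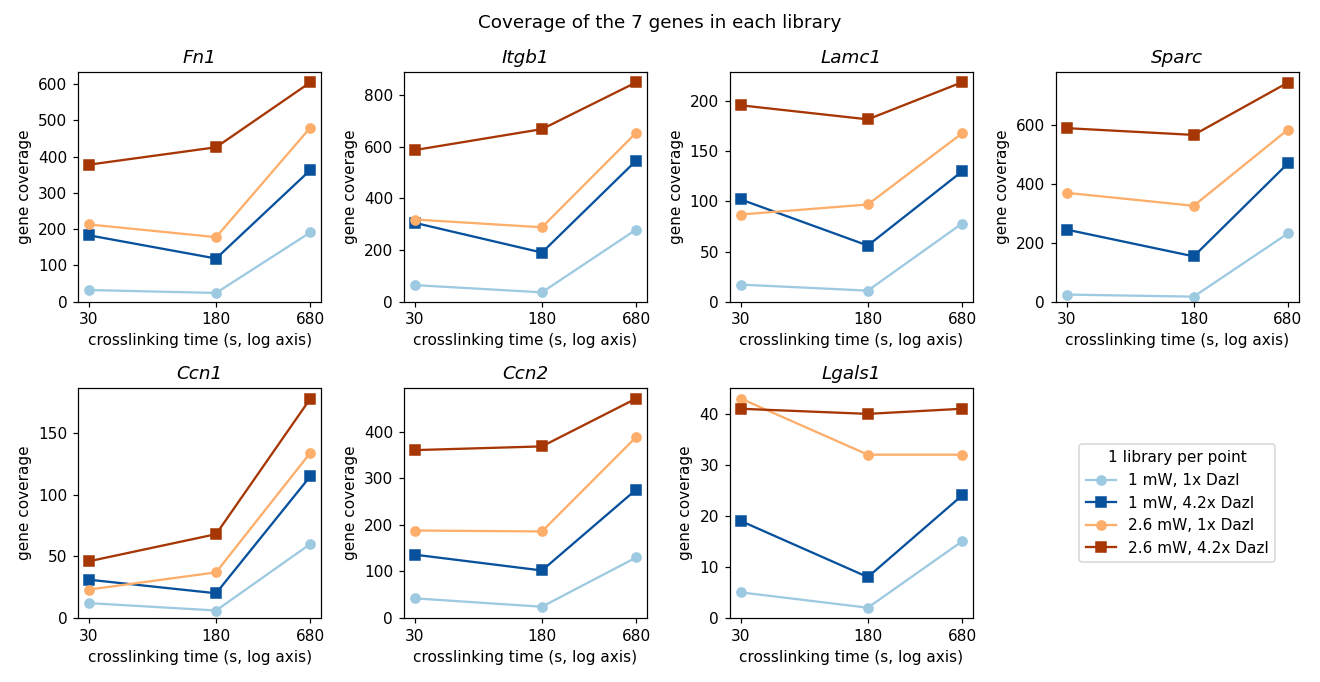
Gene coverage (y axis, authors' normalized coverage summed over the gene's regions) against crosslinking time (x axis, s, log scale) in each of the 12 libraries, with 1 point per library and lines joining the times of 1 laser power and Dazl level. Lgals1 at 2.6 mW runs level or down (43, 32 and 32 with 1x Dazl, and 41, 40 and 41 with 4.2x), while Ccn1 has its steepest step between 180 and 680 s in all 4 settings.

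Genes can be ranked against each other only per covered nucleotide. The mean coverage per covered nt over the 12 libraries was 1.48 for Lgals1, 1.37 for Itgb1, 1.28 for Sparc, 0.94 for Ccn2, 0.82 for Ccn1, 0.81 for Fn1 and 0.78 for Lamc1. Neighbours in this order were compared by counting libraries, without a test, and some were not separated. Lgals1 was above Itgb1 in 6 of 12 libraries, Ccn1 above Fn1 in 6 of 12 and Fn1 above Lamc1 in 6 of 12. Itgb1 was above Sparc in 9 of 12, Sparc above Ccn2 in 10 of 12 and Ccn2 above Ccn1 in 8 of 12. By contrast, Itgb1 was above each of Ccn2, Ccn1, Fn1 and Lamc1 in 12 of 12 libraries.

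The main comparisons asked how coverage differed between Dazl levels, laser powers and times. They were fitted with limma across all 3203 genes on log2(coverage + 3), with the 3 factors as additive terms, 12 libraries and 7 residual degrees of freedom. Adjusted p-values are Benjamini-Hochberg values over all genes. Since each condition is 1 library, the error of each estimate starts from the spread of libraries around the additive fit. In limma that spread was moderated towards the trend over all genes. The median prior had 107 degrees of freedom for values as deposited, and 11.0 for values scaled to equal library totals. Errors and p-values therefore rest more on the spread shared by all genes than on each gene's own. Nothing in the labels says that the libraries came from separate cultures. Folds on this scale understate the change of low genes.

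With 4.2x against 1x Dazl, all 7 genes were higher. This is the usual behaviour in the table, where 82.4% of all genes were called higher, and the median change was 1.27 over the 7 genes against 0.88 over all. Sparc had the largest change at 1.50 ± 0.41 (log2 ± SE; limma adjusted p = 0.00131), with folds of 1.27 to 10.2 over the 6 matched pairs. Fn1, Itgb1 and Lamc1 differed by 1.32 ± 0.39, 1.32 ± 0.41 and 1.27 ± 0.36, each higher in 6 of 6 pairs. Ccn2 and Ccn1 differed by 1.14 ± 0.38 and 0.93 ± 0.32, also in 6 of 6 pairs. Lgals1 had the smallest difference, 0.62 ± 0.30 (limma adjusted p = 0.0463), and was higher in 5 of 6 pairs. The Lgals1 call was lost when any 1 of 7 libraries was left out, with limma adjusted p up to 0.169. Without the whole 1 mW/1x time course, 4 of the 7 genes were called higher (46.7% of all genes), and Sparc, Ccn1 and Lgals1 were not.

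With 2.6 against 1 mW, all 7 genes were again higher, against 93.4% of all genes, with a median of 1.66 for the 7 and 1.22 for all. Each of the 7 was higher in 6 of 6 matched pairs. Sparc had the largest change at 2.16 ± 0.41 (limma adjusted p = 3.1e-06), with folds from 1.59 at 680 s and 4.2x to 19.2 at 180 s and 1x. Lgals1 differed by 1.66 ± 0.30 (limma adjusted p = 1.11e-06), so that the gene with the smallest Dazl difference had a laser difference at the median of the set. Ccn2, Fn1, Itgb1 and Lamc1 differed by 1.74 ± 0.38, 1.71 ± 0.39, 1.62 ± 0.41 and 1.57 ± 0.36. Ccn1 had the smallest laser difference, 1.14 ± 0.32 (limma adjusted p = 0.00087).

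The differences were uneven over the settings. In Sparc the higher Dazl level went with a 10.2-fold higher value at 30 s and 1 mW but a 1.59-fold higher one at 30 s and 2.6 mW. In Itgb1 the corresponding folds were 4.77 and 1.85. The library totals had folds of 5.00 and 1.89 for the same pairs, so a like difference was seen over the whole libraries. The Sparc value under 1 mW/1x at 30 s was 24, near its lowest possible value of 14. The interaction of Dazl level and laser power was below 0 in all 7 genes, from -1.79 in Sparc to -0.43 in Ccn1. Its median was also below 0 over all genes, at -0.26, against -0.92 over the 7. None of the 7 passed (limma adjusted p = 0.242 for Sparc, the lowest of the 7), against 0.0312% of all genes called lower. At an unadjusted p under 0.05 in limma, 1 of 7 and 486 of 3203 differed. Without the 1 mW/1x library of 680 s, 6 of the 7 were called lower, where 26.8% of all genes passed in either direction. Under 1 mW/1x at 30 s, 45 of the 69 regions and 74.0% of all regions stood at 1, the lowest value listed in that library. The part of that limit in the interaction was not tested. The interactions of the 680 over 30 s change with laser power (-1.53 to 0.21 over the 7 genes) and with Dazl level (-1.26 to -0.24) passed in 0 of 7 and in 0% of all genes in limma. At an unadjusted p under 0.05 they counted 0 of 7 in both, with 185 and 224 of 3203 genes.

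From 30 to 680 s, 5 of the 7 genes were higher, against 73% of all genes. Ccn1 rose most, by 2.04 ± 0.40 (limma adjusted p = 7.64e-06), with folds of 3.71 to 5.83 over the 4 settings. Fn1 rose by 1.32 ± 0.48, Sparc by 1.26 ± 0.50, Itgb1 by 1.12 ± 0.50 and Ccn2 by 1.00 ± 0.47, each in 4 of 4 settings. Lamc1 (0.86 ± 0.44, limma adjusted p = 0.0688) and Lgals1 (0.27 ± 0.36, limma adjusted p = 0.481) did not pass. The count of 5 depended on single libraries. It fell to 1 when any of the libraries of 1 mW/1x at 30 s, 1 mW/1x at 680 s, 1 mW/4.2x at 680 s, 2.6 mW/1x at 680 s or 2.6 mW/4.2x at 30 s was left out, where 52.4% to 59.9% of all genes were still called. It was 3 without 1 mW/4.2x at 180 s, 2.6 mW/1x at 30 s or 2.6 mW/4.2x at 180 s, where 65.5% to 72.5% of all genes were called. Only Ccn1 kept its call in every one of these leave-outs.

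No rise was called before 180 s. From 30 to 180 s, 0 of the 7 genes and 0% of all genes were called by limma in either direction, and at an unadjusted p under 0.05 the counts were 0 of 7 and 5 of 3203. The 7 estimates ran from -0.53 to -0.04. Sparc and Lgals1 were lower at 180 s than at 30 s in 4 of 4 settings. From 180 to 680 s, all 7 genes were higher, against 84.6% of all genes, from 0.79 ± 0.36 in Lgals1 (limma adjusted p = 0.0379) to 2.07 ± 0.40 in Ccn1 (limma adjusted p = 5.56e-06). The Lgals1 call was lost without the 180 or the 680 s library of 1 mW/1x or of 1 mW/4.2x (limma adjusted p from 0.0943 to 0.204), and the Lamc1 call without either of those of 1 mW/1x (limma adjusted p 0.0663 and 0.0708). Without the whole 1 mW/1x time course, 6 of the 7 were called, against 73% of all genes.

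**Figure D3:**
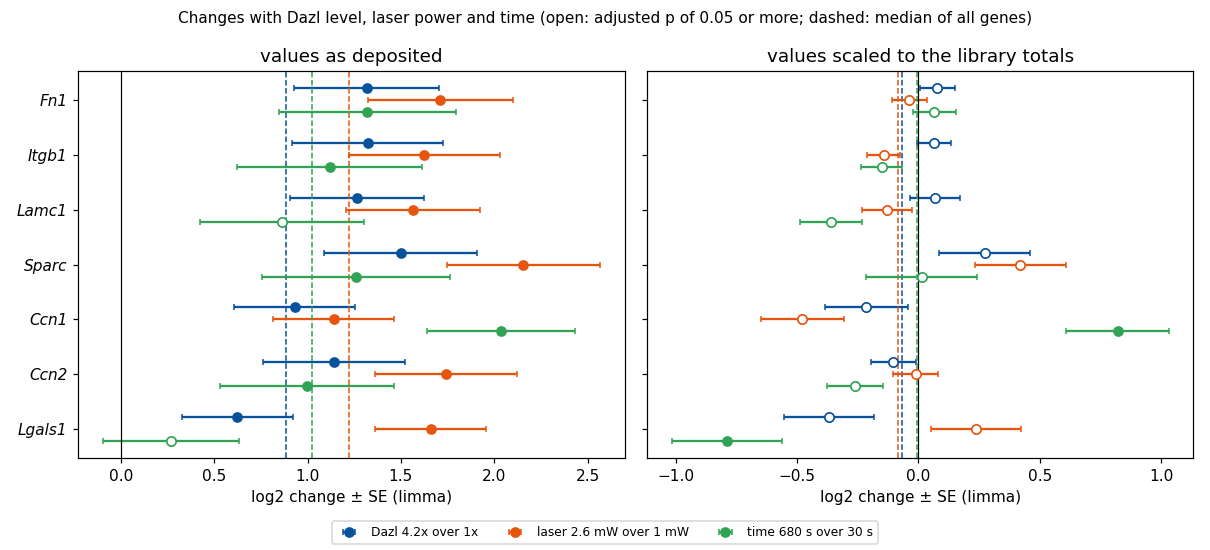
Estimated log2 changes (x axis, with bars of 1 SE from limma over 12 libraries) of the 7 genes (y axis) with Dazl level, laser power and time, for values as deposited (left) and scaled to equal library totals (right); open points have an adjusted p of 0.05 or more and dashed lines are medians over all 3203 genes. On the left 19 of 21 points pass, and on the right only the time changes of Ccn1 (0.82) and Lgals1 (-0.79) do.

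The share of a gene's 680 s coverage that was already listed at 30 s sets the time courses on 1 scale. At 2.6 mW and 4.2x Dazl it was 100.0% for Lgals1, 89.5% for Lamc1, 79.2% for Sparc, 76.5% for Ccn2, 69.1% for Itgb1, 62.5% for Fn1 and 25.8% for Ccn1. The median over all genes was 68.9%. At 30 s Ccn1 and Lgals1 were at the extremes of the 7 in the 3 stronger settings. At 180 s under 1 mW/4.2x, Lgals1 (33.3%) was below Lamc1 (43.1%), Ccn2 (37.0%) and Itgb1 (34.8%). At 2.6 mW and 1x Dazl, Ccn1 had 17.2% and Lgals1 134%, and under 1 mW/4.2x Ccn1 had 27.0% and Lgals1 79.2%. At 1 mW and 1x Dazl the 7 genes ran from 10.3% in Sparc to 33.3% in Lgals1, and Ccn1 was just below their median of 21.8%. These shares move with the library totals, and the median of the 7 genes, 21.8% to 76.5% as deposited, became 108% to 116% once totals were made equal.

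**Figure D4:**
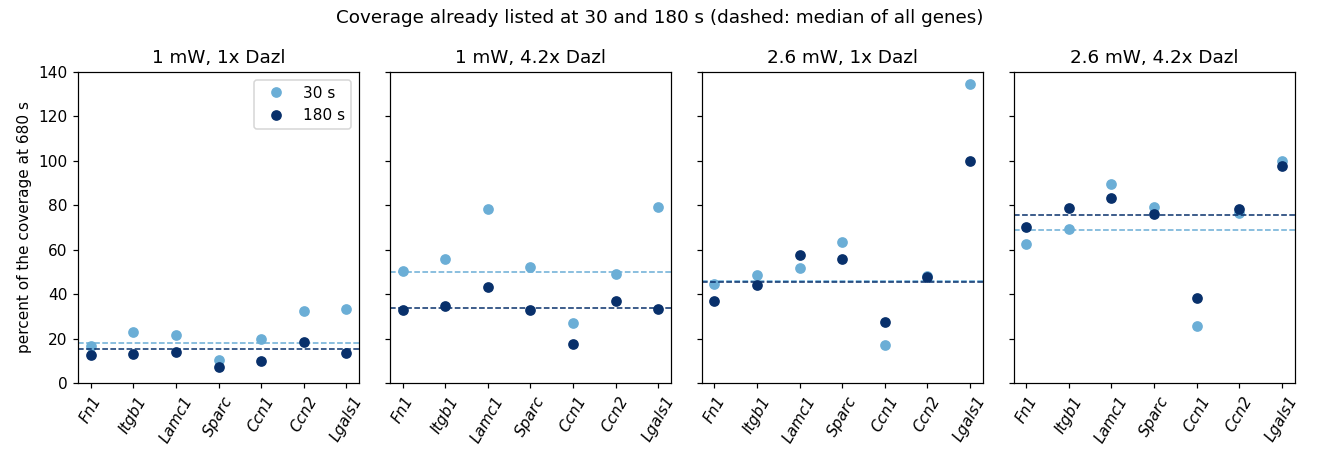
Coverage at 30 s and 180 s as a percentage of the same gene's coverage at 680 s (y axis) for the 7 genes (x axis) in each of the 4 settings, 1 library per point; dashed lines are medians over all genes. At 30 s in the 3 stronger settings Ccn1 lies lowest, at 17.2% to 27.0%, and Lgals1 highest, at 79.2% to 134%; points of Ccn2 under 2.6 mW/1x (48.3% and 47.8%) overlap.

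Library totals were higher with the stronger laser, with the higher Dazl level and at 680 s than at 30 s, and scaling every library to the same total shifted the median of all genes from 0.88 to -0.07 for Dazl, from 1.22 to -0.08 for laser power and from 1.03 to -0.01 for time. The scaled values ask whether a gene's share of the library changed. For Dazl level, 0 of the 7 genes and 0% of all genes passed in limma in either direction, with 0 of 7 and 539 of 3203 at an unadjusted p under 0.05. The 7 estimates ran from -0.37 ± 0.19 in Lgals1 to 0.27 ± 0.19 in Sparc, and that of Sparc turned to -0.17 without the 1 mW/1x time course. For laser power, 0 of 7 and 0% of all genes passed in limma, with 2 of 7 and 927 of 3203 at an unadjusted p under 0.05. The 2 were Ccn1 at -0.48 ± 0.17 (limma adjusted p = 0.136) and Sparc at 0.42 ± 0.19 (limma adjusted p = 0.160). Both passed, with the same signs, when the 2.6 mW/4.2x time course was left out, where 26.6% of all genes did. Sparc also passed when libraries were centred on their medians, where 33.7% of all genes did. Without the 1 mW/1x time course neither passed: Sparc turned to -0.022 (limma adjusted p = 0.896) and Ccn1 had -0.29 (limma adjusted p = 0.356).

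Between 30 and 680 s, Ccn1's share rose and that of Lgals1 fell. Ccn1 changed by 0.82 ± 0.21 (limma adjusted p = 0.0194), against 9.62% of all genes called higher. Lgals1 changed by -0.79 ± 0.23 (limma adjusted p = 0.0322), against 1.59% called lower. Lamc1 (-0.36 ± 0.13, limma adjusted p = 0.0760) and Ccn2 (-0.26 ± 0.11, limma adjusted p = 0.155) did not pass. Fn1, Itgb1 and Sparc had estimates between -0.15 and 0.07. Neither call held throughout. Leaving out any of the 6 libraries of 30 or 680 s outside the 1 mW/1x time course lost the Ccn1 call (limma adjusted p from 0.0544 to 0.0858). Leaving out the 680 s library of any of the 4 settings, or the 30 s library under 1 mW/4.2x or under 2.6 mW/1x, lost the Lgals1 call (limma adjusted p from 0.0520 to 0.136). Without the whole 1 mW/1x time course, 4 of the 7 passed, against 24.7% of all genes in either direction. Ccn1 was higher (1.15), and Lgals1 (-0.85), Lamc1 (-0.41) and Sparc (-0.26) were lower.

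The single regions show where the late rise of Ccn1 lay. Its strongest region, chr3:145647131-145647153, had 6, 17 and 62 at 30, 180 and 680 s under 2.6 mW/4.2x, and 9, 9 and 51 under 2.6 mW/1x. Its values were 14, 6 and 38 under 1 mW/4.2x, and 9, 3 and 22 under 1 mW/1x. A neighbour at chr3:145647378-145647394 had 2, 2 and 33 under the strongest setting and stood at 1 at 30 and 180 s under the other 3. None of the 4 Ccn1 regions had the same value at 30 and 680 s under 2.6 mW/4.2x.

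A region was called late when its coverage was at most 3 in all 8 libraries of 30 and 180 s and at least 18 at 680 s under 2.6 mW/4.2x. Of the 69 regions, 5 (7.25%) were late, against 5.44% of the regions of other genes that reached 18. The cut of 18 is the lowest value of the 69 regions in that library. It therefore kept all 69, but 6292 of 7769 regions of other genes. Without the cut the share in other genes was 14.3%, so the comparison depends on it. The late regions were 2 in Fn1, 2 in Sparc and 1 in Ccn1. The Fn1 region at chr1:71585511-71585527, 38 nt from the end of the span, had 1 in each of those 8 libraries and 5, 17, 28 and 30 in the libraries of 680 s, in the order 1 mW with 1x and 4.2x, then 2.6 mW with 1x and 4.2x. The Sparc region at chr11:55395846-55395862 had 1 or 2 in the 8 and 9, 34, 40 and 48 at 680 s. Both lay in genes with other regions that were high at 30 s under 2.6 mW/4.2x. The nearest Fn1 region, chr1:71585566-71585582, was not among these, with 3 at 30 s under that setting. The strongest Fn1 region, at the same end of the gene, had 84, 97 and 124 under the strongest setting, and the strongest Sparc region, chr11:55394640-55394689, had 130, 120 and 130.

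At the other extreme, 32 of the 69 regions (46.4%) had exactly the same value at 30 and 680 s under 2.6 mW/4.2x, against 45.6% in other genes, a share close to the background. They were spread unevenly, with 7 of 8 regions in Lamc1, 7 of 14 in Sparc, 7 of 18 in Fn1, 6 of 14 in Itgb1, 4 of 10 in Ccn2, the single region of Lgals1 and 0 of 4 in Ccn1. The wide regions of the 2 genes with a dominant site were not tied. The 57-nt region of Itgb1 had 208, 269 and 379 under that setting and 17, 13 and 117 under 1 mW/1x. The 83-nt region of Ccn2 had 193, 185 and 231, and 26, 13 and 70.

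Under 1 mW/4.2x, 48 of the 69 regions (69.6%) were lower at 180 than at 30 s, against 55.0% in other genes. The library total fell between the same 2 libraries, from 74552 to 48334. A region that stood at 1 at 30 s could not be lower at 180 s. In that 30 s library 13 of the 69 regions stood at 1, and 27.5% of all regions did. The shares of 69.6% and 55.0% therefore have unlike bases, and their difference was not tested. In the 4 settings the 180 s total was 75.6%, 64.8%, 93.3% and 107% of the 30 s total, in the order 1 mW with 1x and 4.2x, then 2.6 mW with 1x and 4.2x.

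Of 109 other genes of matrix and adhesion listed by function, 38 had a region. None of the 38 was called lower in any of the 3 main comparisons, as was 0% of all genes. With Dazl level 33 of the 38 were higher, with laser power 38 and with time 30, against 82.4%, 93.4% and 73% of all genes. The counts of the single groups below stand against the same 3 shares, and none is read as particular to its group. The integrins had 3 genes with a region of 20 listed, all α chains that pair with other subunits to form matrix receptors. Itgav had a mean coverage of 260 over the 12 libraries and differed by 1.28 ± 0.39 with Dazl level and 1.72 ± 0.39 with laser power. Itga3, a laminin receptor chain, had a mean of 47.6 and differed by 1.05 ± 0.31 and 1.67 ± 0.31. All 3 integrins, with Itga6, passed in each of the 3 comparisons.

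The integrin adhesion complex, which ties integrins to actin, had 6 genes with a region of 18 listed, and 5 were higher with Dazl level, 6 with laser power and 5 with time (all genes: 82.4%, 93.4% and 73%). Vcl, which encodes vinculin, had a mean of 80.9 and differed by 0.80 ± 0.42 with time (limma adjusted p = 0.0749). Pxn, which encodes the scaffold paxillin, had a mean of 28.7 and differed by 1.57 ± 0.29 with Dazl level. Laminins and other basement membrane genes had 5 of 14 with a region, and 3, 5 and 4 were higher with Dazl level, laser power and time. Lama5, a laminin α chain, had a mean of 47.1, and Lamc3, the other γ chain covered, had 9.83.

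Of the other matricellular genes, 11 of 23 had a region, of which 10, 11 and 10 were higher with Dazl level, laser power and time (all genes: 82.4%, 93.4% and 73%). Thbs1, which encodes thrombospondin-1, had 28 regions and a mean of 756, and Spp1, which encodes osteopontin, had 5 regions and a mean of 68.3. Among galectins, 1 of 8 had a region beside Lgals1. It was Lgals8, with a mean of 34.3, a laser difference of 1.47 ± 0.31 and a time difference of 0.65 ± 0.38 (limma adjusted p = 0.104). Cell surface matrix receptors had 6 of 12 genes with a region, and 6, 6 and 3 were higher. The proteoglycan gene Sdc4 had 22 regions and a mean of 474, and Dag1, which encodes dystroglycan, a mean of 92.6. Fibre glycoproteins had 6 of 14, of which 5, 6 and 5 were higher. Efemp1, an elastic fibre gene, rose with time by 2.02 ± 0.34, and Ltbp1, which binds latent TGF-β, by 1.12 ± 0.34.

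On the scale of library shares, 6 of the 38 were called higher with time (against 9.62% of all genes) and 0 lower (against 1.59%). With Dazl level or laser power 0 were called, against 0% of all genes. The 6 were Itga6, Tln1, Zyx, Agrn, Efemp1 and Ltbp4. All 6 were weakly covered, with mean coverages from 7.25 for Zyx to 30.6 for Itga6, and Zyx, Agrn, Ltbp4 and Tln1 had 1 region each that stood at 1 or 2 in most of the libraries of 30 and 180 s.

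The course of each gene over the 12 libraries was also compared with that of 1378 genes of mean coverage 20 or more, by Pearson's r of scaled log2 values. These are descriptions over 12 libraries that share their totals. The genes named were picked as the highest of the 1378, so high values come partly from that choice. The median r over those genes ran from -0.19 for Ccn2 to 0.22 for Sparc. The genes most like Sparc were Chmp1a (r = 0.98) and Cebpb (0.96), and those most like Lgals1 were Clta (0.96) and Tmem109 (0.89). Ccn2 was most like Efr3a (0.93) and Pxdn (0.92), and Ccn1 most like Ptpn14 (0.90) and Cflar (0.87). For Fn1 they were Siae (0.85) and Ube2r2 (0.84), for Itgb1 Ccng1 and Tmbim6 (both 0.85), and for Lamc1 Acer3 and Serp1 (both 0.84). Within the 7 genes the highest value was 0.65, between Itgb1 and Lamc1. Ccn1 and Ccn2, though relatives, had -0.06, and Fn1 and Ccn2 had -0.64. None of the 7 was among the pair of genes most like another of the 7.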

How the data were processed

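The authors deposited 1 interval file for each of 12 libraries, without strand, whose values are a score that they call normalized coverage. Tools named in the submitters' processing notes are FastQC and Bowtie2, and the build named there is mm10. The sources used here do not state how reads were counted, coverage normalized or sites picked, so comparisons of totals rest on the authors' normalization. Regions in several genes were given to the only protein-coding one. Spans came from RefSeq (GRCm38.p6), and all 7 genes matched by symbol. Genes were tested in R 4.3.3 with limma 3.58.1 (lmFit, and eBayes with trend and robust) on log2(coverage + 3), with no filter on low genes. The shares of the library total used values scaled to the geometric mean of the totals. Interactions were fitted 1 at a time. The code was tested on simulated data. The named genes are the 7 members and, of each other list, the 2 with the highest mean coverage, with genes called on the share scale named after their values were seen. The members and lists were chosen with earlier results of these data known.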

Additional observations from a re-analysis of the deposited data

How the results depend on the processing

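No fit blocked on matched pairs was run, and the labels carry no replicate numbers. Libraries were matched through the other factors of the additive fit, and matched pairs were only described by their folds. Pseudocounts of 1 and 10, joining at 0 or 50 nt, only regions in 1 gene, only genes with a mean of at least 10, eBayes without trend and robust, and each library or a whole time course left out were tried. Leaving out the 1 mW/1x time course was chosen after seeing the data. The number of the 7 genes called with Dazl level went from 7 to 4 without that time course. Leaving out single libraries gave 1 to 6 genes called from 30 to 680 s, 0 to 2 on the share scale for time, and 0 to 6 for the interaction of Dazl level and laser power, which could not be fitted without either time course. On the share scale, the time count went from 2 to 1 with plain eBayes, to 1 without the 2.6 mW/4.2x time course and to 4 without the 1 mW/1x one. The laser count went from 0 to 2 without the 2.6 mW/4.2x time course (26.6% of all genes) and to 1 when centred on library medians (33.7%). Scaling to library totals took the median share of 680 s coverage at 30 s to 116%, 108%, 108% and 111% (1 mW with 1x and 4.2x, then 2.6 mW), and at 180 s from 12.9%, 33.3%, 47.8% and 78.2% to 91.0%, 106%, 114% and 107%. Signs turned for these estimates, none of which was called with all 12 libraries. The 180 over 30 s estimate of Ccn1 was 0.020 with pseudocount 10 and 0.20 without the 1 mW/1x time course. Without that time course Lgals1 had -0.033 from 30 to 680 s, and on the share scale Sparc had -0.17 (Dazl), -0.022 (laser) and -0.26 (time), and Ccn2 0.052 (laser). Without the 2.6 mW/4.2x time course Fn1 had 0.010 (laser share). Centred on medians, Ccn1 had 0.015 and Ccn2 0.22 (Dazl), Ccn2 0.50, Fn1 0.47, Itgb1 0.38 and Lamc1 0.32 (laser), and Itgb1 0.014 (time). With single libraries left out, 180 over 30 s ran from -0.22 to 0.22 in Ccn1, -0.44 to 0.018 in Ccn2, -0.53 to 0.039 in Fn1, -0.54 to 0.014 in Itgb1 and -0.78 to 0.15 in Sparc, the laser share of Ccn2 from -0.067 to 0.080 and the time share of Sparc from -0.20 to 0.18. The cause was not tested. The region count was 73 with joining at 0 nt and 58 at 50 nt. Values near 1 limit the weakest libraries.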
